A study of Mus musculus with 8 samples.

Results

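The chemokine receptor family of thymic natural killer T (NKT) cells was followed through 8 listed genes, Cxcr3, Cx3cr1, Ccr8, Ccr4, Ccr9, Ccr2, Cxcr4 and Cxcr6. They were found in the read count table by the gene identifiers that a RefSeq table pairs with these symbols, and they are 8 of its 27179 genes. The 8 genes were chosen with earlier results of these data known, so counts of members called are descriptive. All 8 passed the filter on low counts, as did 13794 genes in all. RNA was sequenced from NKT cells of the thymus of C57BL/6 mice in 3 subsets that differ in surface CD44 and NK1.1. Each of the subsets was taken from Ezh2-KO mice and from wild-type (WT) mice. CD44- NK1.1- and CD44+ NK1.1+ cells had 1 library per genotype, and each genotype had 2 biological replicates of the CD44+ NK1.1- subset, so that there were 4 Ezh2-KO and 4 WT libraries. CD44- NK1.1- cells are the earliest of these subsets and CD44+ NK1.1+ cells the latest, as NKT cell development is commonly ordered. The labels give neither how and in which cells Ezh2 was deleted, nor the age or sex of the mice, nor whether animals were pooled. Ezh2 encodes the histone methyltransferase of Polycomb repressive complex PRC2, which marks silent genes.

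Chemokine receptors are membrane proteins that couple to inhibitory G proteins and steer cells along gradients of small secreted chemokines. In the thymus they place developing T cells in cortex and medulla and set which cells stay and which leave. NKT cells that produce interferon gamma are known for CXCR3 and CXCR6, whereas less mature T cells use CCR4, CCR7, CCR9 and CXCR4 to move through the thymus. CXCR3 binds CXCL9, CXCL10 and CXCL11, CX3CR1 binds the membrane-bound chemokine CX3CL1, and CXCR6 binds CXCL16. CCR8 binds CCL1, CCR4 binds CCL17 and CCL22, CCR9 binds CCL25, CCR2 binds CCL2 and related ligands, and CXCR4 binds CXCL12.

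Of the 8 genes, 6 lie on mouse chromosome 9 (build mm10, positions from RefSeq on GRCm38.p6). Cx3cr1 (chr9:120048683-120068296) and Ccr8 (chr9:120092133-120094906) are separated by 23.8 kb with no protein-coding gene wholly between them. Ccr9 (chr9:123767211-123783457) and Cxcr6 (chr9:123806477-123811754) are 23.0 kb apart, likewise with none wholly between them. Genes that reach into these gaps from outside were not counted. Ccr4 (chr9:114490316-114505476) and Ccr2 (chr9:124101918-124109140) lie on the same chromosome. Reads could be shared between near-identical receptor genes. Cxcr3 (chrX:101731535-101734147) and Cxcr4 (chr1:128588199-128592299) lie elsewhere. The identifiers in the table are 12766 for Cxcr3, 13051 for Cx3cr1, 12776 for Ccr8, 12773 for Ccr4, 12769 for Ccr9, 12772 for Ccr2, 12767 for Cxcr4 and 80901 for Cxcr6.

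The promoters of Cxcr3, Cx3cr1 and Ccr8 are shown because these genes had lower counts in the knockout, and that of Cxcr4 because its base composition stands apart within the family. Each is the 250 bases before the RefSeq start of the gene (GRCm38.p6), read 5′ to 3′ on the strand of the gene, with every CG in capitals. The windows are chrX:101734148-101734397 on the minus strand for Cxcr3, chr9:120068297-120068546 on the minus strand for Cx3cr1, chr9:120091883-120092132 on the plus strand for Ccr8 and chr1:128592300-128592549 on the minus strand for Cxcr4.
Cxcr3: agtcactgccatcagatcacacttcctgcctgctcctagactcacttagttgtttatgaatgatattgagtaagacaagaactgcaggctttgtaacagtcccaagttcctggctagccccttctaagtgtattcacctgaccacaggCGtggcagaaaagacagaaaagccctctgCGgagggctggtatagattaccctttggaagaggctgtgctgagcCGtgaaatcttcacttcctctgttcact
Cx3cr1: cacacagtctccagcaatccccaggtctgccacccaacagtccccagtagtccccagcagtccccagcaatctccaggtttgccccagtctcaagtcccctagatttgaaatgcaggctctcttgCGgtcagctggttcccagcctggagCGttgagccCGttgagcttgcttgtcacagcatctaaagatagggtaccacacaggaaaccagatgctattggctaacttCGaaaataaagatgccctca
Ccr8: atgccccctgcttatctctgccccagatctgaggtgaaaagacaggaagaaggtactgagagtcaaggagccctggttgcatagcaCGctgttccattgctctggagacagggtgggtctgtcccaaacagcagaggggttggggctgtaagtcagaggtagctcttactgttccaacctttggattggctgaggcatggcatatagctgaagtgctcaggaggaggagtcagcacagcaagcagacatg
Cxcr4: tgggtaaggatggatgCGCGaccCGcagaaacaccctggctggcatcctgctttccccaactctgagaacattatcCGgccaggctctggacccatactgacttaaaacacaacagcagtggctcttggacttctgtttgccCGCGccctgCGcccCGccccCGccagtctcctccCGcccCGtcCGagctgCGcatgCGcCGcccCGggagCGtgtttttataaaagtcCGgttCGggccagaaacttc

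The window before Cxcr4 held 19 CG pairs, and 80.3% of 32851 RefSeq windows of that length held fewer. The other members had 1 CG pair (Ccr8 and Ccr2), 3 (Cxcr3, Ccr4, Ccr9 and Cxcr6) or 4 (Cx3cr1), against a median of 6 over all windows. The Cxcr4 window was thus above the median and those of the other 7 were below it. The windows of Ccr4 and Ccr2 precede RefSeq starts that lie inside the spans given above. Short core motifs were searched on both strands, and no matches within a member's window overlapped. The T-box core TCACAC, which lies in the site bound by T-bet, was in the Cxcr3 window only, with its first base 234 bases before the start, and 12.3% of all windows held it. The Runx core TGTGGT was in the windows of Cxcr3, Cx3cr1 and Cxcr6, and in 14% of all windows. The GATA core AGATAA was in those of Ccr8 and Ccr2 (9.99% of all windows). A core bound by Krueppel-like factors, CCACCC, was in those of Cx3cr1, Ccr8 and Ccr9 (28.1% of all windows). Such matches describe the letters of these windows and are not evidence of binding.

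The libraries held 20308745 to 22995090 counts. Levels are in CPM, read counts scaled to a common library size. Ezh2 itself had 78.4 CPM in Ezh2-KO and 109 CPM in WT CD44- NK1.1- cells. It had 83.3 and 77.9 CPM in Ezh2-KO and 113 and 136 CPM in WT CD44+ NK1.1- cells, and 40.4 CPM in Ezh2-KO and 57.1 CPM in WT CD44+ NK1.1+ cells. It was thus lower in the knockout in each subset, with reads remaining. Klrb1c, which encodes NK1.1, had 1447 CPM in the Ezh2-KO and 1146 CPM in the WT CD44+ NK1.1+ library and 15.4 to 218 CPM in the 6 others. The NKT gene Zbtb16 was present in all 8 libraries, at 114 to 449 CPM. WT CD44+ NK1.1- replicate 1 stood apart. Its summed CPM over 16 immediate early genes, which mark recent activation or handling, was 3898, against 924 in the other WT replicate and 884 and 804 in the Ezh2-KO replicates of that subset. The 4 replicates of CD44+ NK1.1- cells differed within each pair by more than counting noise, with a chi-square per degree of freedom of 6.38 in the Ezh2-KO pair and 44.7 in the WT pair. Erythroid markers summed to 18.4, 17.7, 0.585 and 51.2 CPM in the Ezh2-KO libraries (CD44- NK1.1-, CD44+ NK1.1- replicates 1 and 2, CD44+ NK1.1+) and to 0.989 to 1.42 CPM in the WT libraries. Among markers of other cells, those of B cells summed to 1.03 to 15.6 CPM, those of myeloid cells to 5.27 to 18.6 CPM and those of thymic epithelium to 2.32 to 6.27 CPM.

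Per length, as CPM divided by the gene length in kilobases (RPKM), the 8 genes made up most of the chemokine receptor mRNA. Of the summed RPKM of 18 receptor genes they took 82.2% in Ezh2-KO and 81.0% in WT CD44- NK1.1- cells. They took 81.3% and 81.2% in the Ezh2-KO replicates and 86.6% and 83.6% in the WT replicates of CD44+ NK1.1- cells, and 90.8% in Ezh2-KO and 95.1% in WT CD44+ NK1.1+ cells. The leading gene changed with the subset. In CD44- NK1.1- cells Ccr4 was first, with 119 RPKM in the Ezh2-KO and 138 RPKM in the WT library. In CD44+ NK1.1- cells Cxcr6 was first, with 144 and 163 RPKM in Ezh2-KO and 160 and 184 RPKM in WT cells. In CD44+ NK1.1+ cells Cxcr3 led in the Ezh2-KO library with 286 RPKM, ahead of Cxcr6 with 213 RPKM, whereas Cxcr6 led in the WT library with 345 RPKM, ahead of Cxcr3 with 282 RPKM. Cx3cr1 was the lowest of the 8 in the 6 NK1.1- libraries, at 0.541 to 3.52 RPKM. In CD44+ NK1.1+ cells Ccr9 was the lowest, with 6.30 RPKM in the Ezh2-KO and 2.81 RPKM in the WT library, where Cx3cr1 had 7.56 RPKM in the Ezh2-KO and 8.60 RPKM in the WT library. The ratio of Cxcr3 to Ccr4, both in RPKM, was 0.202 in Ezh2-KO and 0.264 in WT CD44- NK1.1- cells. It was 0.561 and 0.569 in Ezh2-KO and 2.14 and 1.06 in WT CD44+ NK1.1- cells, and 15.8 in Ezh2-KO and 27.5 in WT CD44+ NK1.1+ cells. In each subset the ratio was lower in the knockout than in every WT library.

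**Figure D1:**
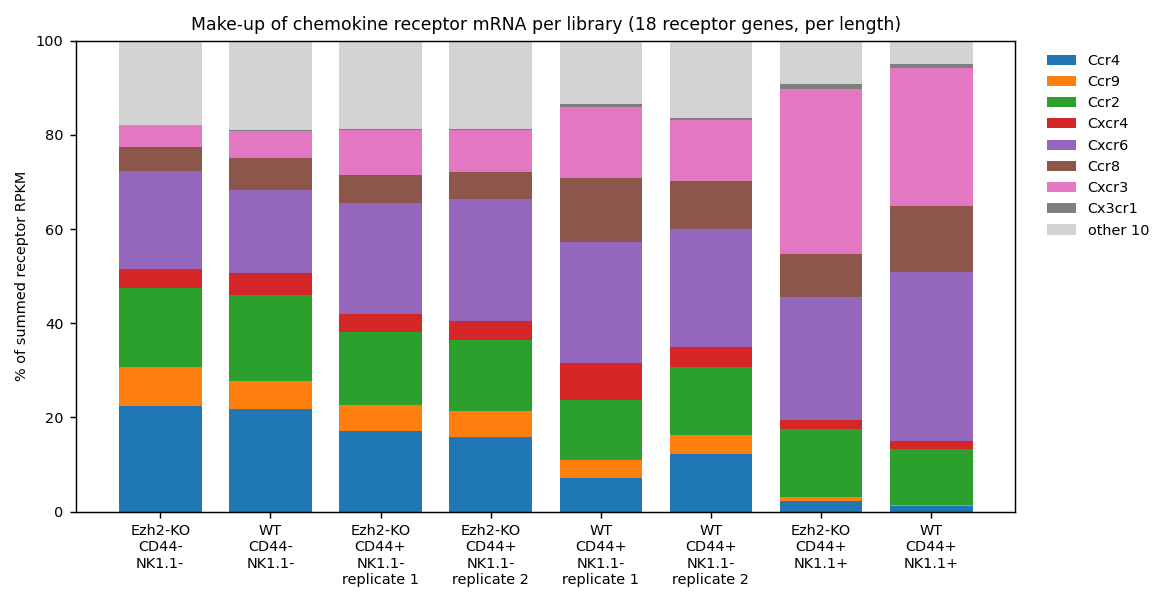
Make-up of chemokine receptor mRNA in each library, as the percent of the summed RPKM of 18 receptor genes (y axis); each bar is 1 library, in order of subset, and each colour a receptor, with the 10 receptors outside the 8 in grey. The Ccr4 band shrinks and the Cxcr3 band widens towards CD44+ NK1.1+ cells, where the 8 genes take 90.8% in the Ezh2-KO and 95.1% in the WT library.

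Across the subsets, Cxcr3, Cx3cr1, Ccr8 and Cxcr6 were, within each genotype, highest in CD44+ NK1.1+ cells. Ccr4, Ccr9 and Cxcr4 were lowest there within each genotype, and Ccr2 stayed within a narrow range. In bulk RNA fewer cells of a type and less RNA per cell cannot be told apart. Cxcr3 had 38.8 CPM in Ezh2-KO and 58.5 CPM in WT CD44- NK1.1- cells, 95.6 and 91.1 CPM in Ezh2-KO and 151 and 153 CPM in WT CD44+ NK1.1- cells, and 459 CPM in Ezh2-KO and 454 CPM in WT CD44+ NK1.1+ cells. The subsets did not overlap, and neither did the genotypes' replicates of CD44+ NK1.1- cells. Cx3cr1, in the same order, had 2.02 CPM in Ezh2-KO and 5.49 CPM in WT cells, then 3.96 and 3.38 CPM in Ezh2-KO and 13.1 and 11.01 CPM in WT cells, and then 28.2 CPM in Ezh2-KO and 32.1 CPM in WT cells. These are 44 to 665 reads per library. The Ezh2-KO CD44+ NK1.1- replicates were below the WT CD44- NK1.1- library, so that without regard to genotype the earlier 2 subsets overlapped.

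Ccr8 had 31.9 CPM in Ezh2-KO and 48.2 CPM in WT CD44- NK1.1- cells, 43.1 and 41.8 CPM in Ezh2-KO and 97.2 and 87.9 CPM in WT CD44+ NK1.1- cells, and 86.6 CPM in Ezh2-KO and 154 CPM in WT CD44+ NK1.1+ cells. The Ezh2-KO library of the last subset was below both WT replicates of the one before it. Cxcr6 had 210 CPM in Ezh2-KO and 212 CPM in WT CD44- NK1.1- cells, 273 and 308 CPM in Ezh2-KO and 303 and 349 CPM in WT CD44+ NK1.1- cells, and 404 CPM in Ezh2-KO and 653 CPM in WT CD44+ NK1.1+ cells. Its order over the subsets was the same in both genotypes, with no overlap between subsets, and the WT CD44+ NK1.1+ library was well above the rest.

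Ccr4 had 333 CPM in Ezh2-KO and 384 CPM in WT CD44- NK1.1- cells, 295 and 277 CPM in Ezh2-KO and 122 and 249 CPM in WT CD44+ NK1.1- cells, and 50.4 CPM in Ezh2-KO and 28.6 CPM in WT CD44+ NK1.1+ cells. The WT replicates of CD44+ NK1.1- cells differed 2.04-fold, the widest such gap among the members, and replicate 1 was the low one. Ccr9 had 197 CPM in Ezh2-KO and 164 CPM in WT CD44- NK1.1- cells, 147 and 153 CPM in Ezh2-KO and 104 and 133 CPM in WT CD44+ NK1.1- cells, and 27.7 CPM in Ezh2-KO and 12.3 CPM in WT CD44+ NK1.1+ cells. In each subset the Ezh2-KO libraries were the higher ones. Cxcr4 had 38.2 CPM in Ezh2-KO and 52.9 CPM in WT CD44- NK1.1- cells, 43.4 and 46.9 CPM in Ezh2-KO and 86.4 and 56.8 CPM in WT CD44+ NK1.1- cells, and 26.1 CPM in Ezh2-KO and 31.7 CPM in WT CD44+ NK1.1+ cells. Its highest value was in WT CD44+ NK1.1- replicate 1, the library with the high immediate early genes. Ccr2 had 320 CPM in Ezh2-KO and 411 CPM in WT CD44- NK1.1- cells, 344 and 343 CPM in Ezh2-KO and 287 and 377 CPM in WT CD44+ NK1.1- cells, and 427 CPM in Ezh2-KO and 409 CPM in WT CD44+ NK1.1+ cells. Its highest library was 1.49-fold above its lowest, against 3.1-fold for Cxcr6 and 15.9-fold for Ccr9. Its CD44+ NK1.1+ libraries were above all 4 CD44+ NK1.1- libraries and overlapped the CD44- NK1.1- ones.

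**Figure D2:**
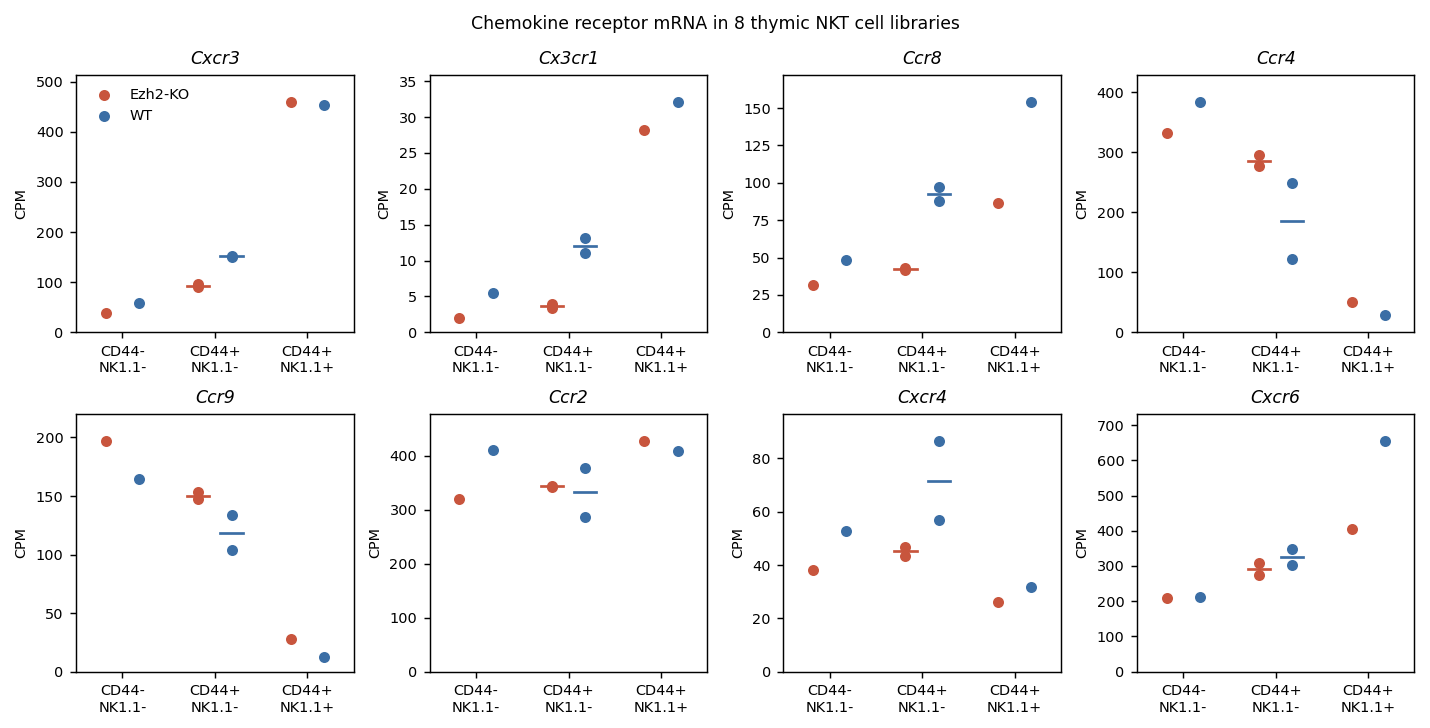
CPM of each of the 8 receptor genes (y axis, from 0) by subset (x axis), with Ezh2-KO libraries in red on the left and WT libraries in blue on the right of each subset. Each point is 1 library and each bar the mean of 2 replicates; Cxcr3 lies at 459 CPM in the Ezh2-KO and 454 CPM in the WT CD44+ NK1.1+ library, while Ccr8 lies at 86.6 CPM in the Ezh2-KO and 154 CPM in the WT one.

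CD44+ NK1.1+ cells were compared with CD44+ NK1.1- cells as the mean over both genotypes, with the quasi-likelihood test of edgeR, and 7 of the 8 genes were called at an adjusted p under 0.05, against 32.5% of all genes tested (16.4% higher and 16.1% lower). The 4 that rose were Cxcr3 (log2 fold change 1.94 ± 0.07 SE, adjusted p = 0.000282), Cx3cr1 (2.18 ± 0.13, adjusted p = 0.000557), Ccr8 (0.88 ± 0.08, adjusted p = 0.00146) and Cxcr6 (0.74 ± 0.10, adjusted p = 0.00392). The 3 that fell were Ccr9 (-2.85 ± 0.14, adjusted p = 0.000421), Ccr4 (-2.60 ± 0.37, adjusted p = 0.0122) and Cxcr4 (-0.98 ± 0.19, adjusted p = 0.0128). Ccr2 did not pass (0.31 ± 0.12, adjusted p = 0.100). The median over the members was 0.52 on the log2 scale, against 0.00 over all genes. The Ccr4 call was lost without either Ezh2-KO CD44+ NK1.1- replicate, when far fewer of all genes were called. Its log2 fold change was -2.58 without replicate 1 and -2.62 without replicate 2. Among the 4 WT libraries alone, Cxcr3 (1.58, adjusted p = 0.0261) and Ccr9 (-3.26, adjusted p = 0.0197) were the 2 members called.

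The NKT1 genes, which mark interferon-producing NKT cells, moved with this contrast. Their summed level was 7448 CPM in the Ezh2-KO and 7753 CPM in the WT CD44+ NK1.1+ library, against 865 and 820 CPM in the Ezh2-KO and 2157 and 1407 CPM in the WT replicates of CD44+ NK1.1- cells. All 10 were tested, 8 were higher and none was lower, among the higher Tbx21, which encodes T-bet (2.31, adjusted p = 0.000282). Of 8 NKT2 genes, which mark interleukin-4-producing NKT cells, 7 fell and none rose. Of 8 NKT17 genes, which mark interleukin-17-producing NKT cells, 5 fell and none rose. Of 7 markers of NK and innate lymphoid cells, many of which NKT cells also express, 6 rose and none fell, among them Tyrobp (adjusted p = 0.000899), Klra4 (0.000986) and Ncr1 (0.00156). They summed to 958 CPM in the Ezh2-KO and 512 CPM in the WT library, against 458 and 444 CPM in the Ezh2-KO and 560 and 489 CPM in the WT replicates of CD44+ NK1.1- cells. Of 3 tested B cell markers 1 rose, and of 9 tested myeloid markers edgeR called 0, with 2 at an unadjusted p under 0.05. B cell markers summed to 13.5 CPM in the Ezh2-KO and 15.6 CPM in the WT library, against 3.34 and 3.20 CPM in the Ezh2-KO and 4.87 and 4.56 CPM in the WT replicates of CD44+ NK1.1- cells, with 5 of the 7 markers under 1 CPM in every library. Myeloid markers summed to 18.6 CPM in the Ezh2-KO and 13.3 CPM in the WT library, against 11.8 and 5.27 CPM in the Ezh2-KO and 15.1 and 6.32 CPM in the WT replicates, with 4 of the 10 markers under 1 CPM in every library. The part of these markers in the receptor results was not tested.

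Against CD44- NK1.1- cells, CD44+ NK1.1+ cells had 6 of the 8 genes called, where 32.2% of all genes were (16% higher and 16.2% lower). The libraries on both sides are single per genotype, so that the spread came from the CD44+ NK1.1- replicates alone. Cxcr3 (3.26 ± 0.10, adjusted p = 0.000137), Cx3cr1 (3.17 ± 0.18, adjusted p = 0.000250), Ccr8 (1.56 ± 0.10, adjusted p = 0.000382) and Cxcr6 (1.28 ± 0.12, adjusted p = 0.000943) rose, while Ccr9 (-3.28 ± 0.15, adjusted p = 0.000206) and Ccr4 (-3.23 ± 0.40, adjusted p = 0.00863) fell. Cxcr4 (-0.64 ± 0.21, adjusted p = 0.0611) and Ccr2 (0.20 ± 0.14, adjusted p = 0.310) did not pass. In CPM, the fold of the CD44+ NK1.1+ over the CD44- NK1.1- library was larger in the Ezh2-KO than in the WT cells for Cxcr3 (11.8 in Ezh2-KO, 7.76 in WT) and Cx3cr1 (14.0 in Ezh2-KO, 5.85 in WT). It was smaller in the Ezh2-KO cells for Cxcr6 (1.92 in Ezh2-KO, 3.08 in WT) and Ccr8 (2.72 in Ezh2-KO, 3.19 in WT). These folds compare single libraries and carry no test.

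The step between the NK1.1- subsets was smaller. CD44+ NK1.1- cells had 3 of the 8 genes higher than CD44- NK1.1- cells and none lower, against 2.66% of all genes called (1.59% higher and 1.07% lower). Cxcr3 (1.32 ± 0.08, adjusted p = 0.00188), Ccr8 (0.68 ± 0.09, adjusted p = 0.0192) and Cx3cr1 (0.998 ± 0.16, adjusted p = 0.0346) rose. Cxcr6 (0.54 ± 0.10, adjusted p = 0.0565), Ccr9 (-0.43 ± 0.12, adjusted p = 0.143), Cxcr4 (0.34 ± 0.18, adjusted p = 0.459), Ccr4 (-0.63 ± 0.31, adjusted p = 0.459) and Ccr2 (-0.10 ± 0.12, adjusted p = 0.771) did not pass. Without an Ezh2-KO CD44+ NK1.1- replicate the calls of Ccr8 and Cx3cr1 were lost and that of Cxcr3 was kept. Far fewer of all genes were then called as well. The log2 fold change without replicate 1 and without replicate 2 was 0.67 and 0.69 for Ccr8 and 0.94 and 1.05 for Cx3cr1. NKT1 genes moved with this step too, with 3 of 10 higher, Tbx21 among them (1.49, adjusted p = 0.00198), and their part in it was not tested.

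The genotypes were compared first in CD44+ NK1.1- cells, the subset with replicates. There Cx3cr1, Ccr8 and Cxcr3 were lower in the knockout and no member was higher. These 3 of 8 stand against 4.94% of all genes called in either direction, 3.78% as higher and 1.16% as lower. As the 8 genes were chosen with earlier results of these data known, these shares carry no test of enrichment. Cxcr3 averaged 93.3 ± 3.13 CPM in Ezh2-KO and 152 ± 1.36 CPM in WT cells (SD, n = 2 each), a log2 fold change of -0.70 ± 0.09 (adjusted p = 0.0121). Cx3cr1 averaged 3.67 ± 0.413 CPM in Ezh2-KO and 12.1 ± 1.49 CPM in WT cells, a log2 fold change of -1.72 ± 0.17 (adjusted p = 0.00618). Ccr8 averaged 42.4 ± 0.931 CPM in Ezh2-KO and 92.6 ± 6.57 CPM in WT cells, a log2 fold change of -1.13 ± 0.10 (adjusted p = 0.00405). For each of these the gap between genotypes was wider than that between replicates. Leaving out an Ezh2-KO replicate ended these calls, and far fewer of all genes were called as well. Without replicate 1 the log2 fold changes were -0.73 for Cxcr3, -1.84 for Cx3cr1 and -1.15 for Ccr8. Without replicate 2 they were -0.67, -1.61 and -1.10. The adjusted p without replicate 1 and without replicate 2 was 0.202 and 0.255 for Cxcr3, 0.0634 and 0.0796 for Cx3cr1 and 0.0763 and 0.0786 for Ccr8, and the spread then came from the WT pair alone. Leaving out a WT replicate left 6 members called without replicate 1 and 7 without replicate 2, when 27.3% and 42% of all genes were called and the spread came from the close Ezh2-KO pair.

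The other 5 did not pass in CD44+ NK1.1- cells. Cxcr4 (-0.66 ± 0.20, adjusted p = 0.143) and Ccr9 (0.34 ± 0.14, adjusted p = 0.228) had replicates that did not overlap between genotypes, and so did Ccr4 (0.63 ± 0.36, adjusted p = 0.429). With 2 replicates a side such separation carries no test, and its share over all genes was not counted. The replicates of Cxcr6 (-0.16 ± 0.12, adjusted p = 0.484) and Ccr2 (0.05 ± 0.14, adjusted p = 0.892) overlapped. The members' median was -0.41 on the log2 scale, against -0.01 over all genes. NKT1 genes moved with the genotype as well, with 3 of 10 lower and none higher. Tbx21 had 48.7 and 45.8 CPM in Ezh2-KO and 124 and 107 CPM in WT cells (-1.29 ± 0.11, adjusted p = 0.00342). Of 6 gamma-delta T cell markers 3 were higher and none lower in the knockout, Sox13 (adjusted p = 0.00163), Trdc (0.00855) and Trgc1 (0.0173), and the list summed to 1407 and 1372 CPM in Ezh2-KO and 859 and 987 CPM in WT cells. Of 7 NK and innate lymphoid markers 2 were higher and none lower, Eomes (adjusted p = 0.000200) and Klra4 (0.00725), with sums of 458 and 444 CPM in Ezh2-KO and 560 and 489 CPM in WT cells. The part of these lists in the receptor values was not tested.

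**Figure D3:**
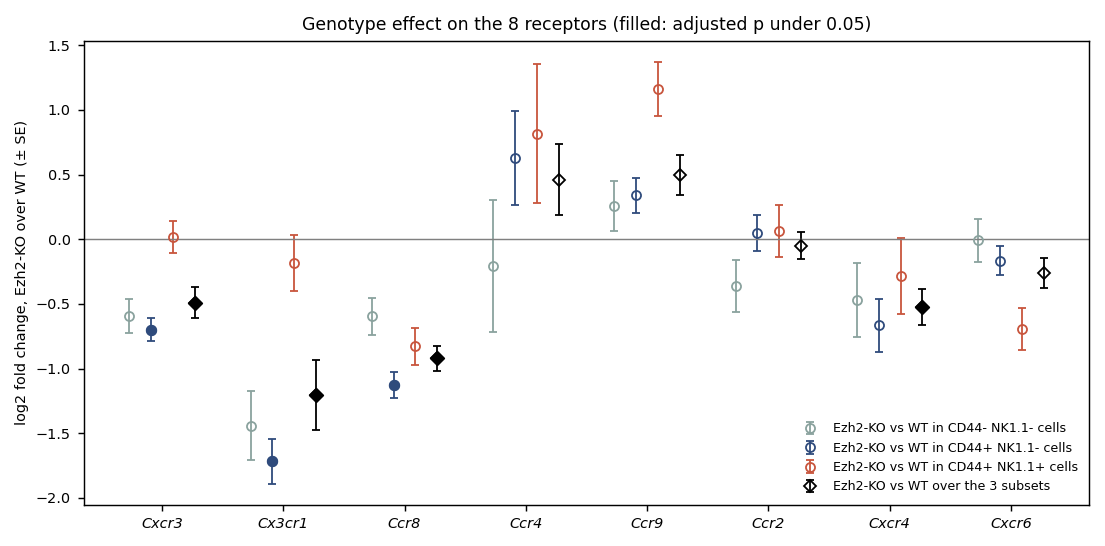
Log2 fold change of Ezh2-KO over WT (y axis) with its standard error for each receptor gene (x axis), in CD44- NK1.1- (green), CD44+ NK1.1- (blue) and CD44+ NK1.1+ cells (red) and over the 3 subsets (black); filled symbols passed an adjusted p under 0.05. Ccr8 lies below 0 in every comparison, at -1.13 in CD44+ NK1.1- cells, while Cxcr3 lies at -0.70 there and at 0.02 in CD44+ NK1.1+ cells.

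Over the 3 subsets, in a model that takes the genotype effect to be alike in each, 4 of the 8 genes were lower in the knockout and none was higher, against 11.3% of all genes called, 6.43% as higher and 4.89% as lower. Ccr8 (-0.92 ± 0.10, adjusted p = 0.00191) was lower in the knockout in every subset, with Ezh2-KO over WT ratios of 0.661, 0.458 and 0.563 in CD44- NK1.1-, CD44+ NK1.1- and CD44+ NK1.1+ cells. It passed in all 16 alternative settings of this comparison. Cx3cr1 (-1.20 ± 0.27, adjusted p = 0.0310), Cxcr3 (-0.49 ± 0.12, adjusted p = 0.0389) and Cxcr4 (-0.52 ± 0.14, adjusted p = 0.0487) were near the threshold. Their calls were lost in 7, 6 and 10 of the 16 settings, with adjusted p up to 0.115, 0.144 and 0.161. For all 3 genes these included the fits without the Ezh2-KO or the WT CD44- NK1.1- library and without either Ezh2-KO CD44+ NK1.1- replicate, and for Cx3cr1 and Cxcr3 also those without either WT CD44+ NK1.1- replicate. Ccr9 (0.50 ± 0.15, adjusted p = 0.0831) had more mRNA in the knockout in each subset without passing. It was called higher in 2 of the 16 settings. These were the DESeq2 Wald test (0.51, adjusted p = 0.00746) and the mean of the 3 genotype effects in edgeR (0.59, adjusted p = 0.0284). Ccr4 (0.46 ± 0.27, adjusted p = 0.348), Cxcr6 (-0.26 ± 0.12, adjusted p = 0.200) and Ccr2 (-0.05 ± 0.11, adjusted p = 0.810) did not pass.

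In the subsets with 1 library per genotype, p-values assume that these libraries vary like the replicated ones, and there is no replicate check. In CD44+ NK1.1+ cells edgeR called 0 of the 8 genes and 0.95% of all genes (0.79% higher and 0.159% lower), with 3 members at an unadjusted p under 0.05 (10.1% of all genes). DESeq2 called 3 members and 1.44% of all genes, and limma-voom 0 members and 0.145% of all genes. The members at an unadjusted p under 0.05 were Ccr8, with 86.6 CPM in Ezh2-KO and 154 CPM in WT cells (-0.83 ± 0.14, adjusted p = 0.0691), Ccr9, with 27.7 CPM in Ezh2-KO and 12.3 CPM in WT cells (1.16 ± 0.21, adjusted p = 0.0833), and Cxcr6, with 404 CPM in Ezh2-KO and 653 CPM in WT cells (-0.69 ± 0.16, adjusted p = 0.168). Cxcr3 differed by less than its standard error (0.02 ± 0.13, adjusted p = 0.998). Cx3cr1 (-0.19 ± 0.22, adjusted p = 0.918), Cxcr4 (-0.28 ± 0.29, adjusted p = 0.902), Ccr4 (0.82 ± 0.54, adjusted p = 0.787) and Ccr2 (0.06 ± 0.20, adjusted p = 0.985) lay within 2 standard errors of 0.

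In CD44- NK1.1- cells edgeR again called 0 of the 8 genes and 0.239% of all genes (0.181% higher and 0.058% lower). The 3 members at an unadjusted p under 0.05 (9.04% of all genes) were those lower in CD44+ NK1.1- cells. DESeq2 and limma-voom called 0 members, with 0.689% and 0.0507% of all genes. Cx3cr1 had 2.02 CPM in Ezh2-KO and 5.49 CPM in WT cells (-1.44 ± 0.27, adjusted p = 0.160), Cxcr3 had 38.8 CPM in Ezh2-KO and 58.5 CPM in WT cells (-0.59 ± 0.13, adjusted p = 0.210), and Ccr8 had 31.9 CPM in Ezh2-KO and 48.2 CPM in WT cells (-0.60 ± 0.14, adjusted p = 0.250). The other 5 lay between -0.47 ± 0.29 (Cxcr4, adjusted p = 0.756) and 0.26 ± 0.19 (Ccr9, adjusted p = 0.818). Tbx21 had 17.2 CPM in Ezh2-KO and 40.4 CPM in WT cells of this subset (-1.23 ± 0.16, adjusted p = 0.0691), and 356 CPM in Ezh2-KO and 378 CPM in WT CD44+ NK1.1+ cells (-0.09 ± 0.15, adjusted p = 0.958). The NKT1 list had a sum of 450 CPM in Ezh2-KO and 751 CPM in WT CD44- NK1.1- cells, and their part in these values was not tested.

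Whether the genotype effect differed between subsets was tested as a difference of log2 fold changes. Between CD44+ NK1.1+ and CD44+ NK1.1- cells edgeR called 0 of the 8 genes and 0 of 13794 genes, with 4 members and 3.76% of all genes at an unadjusted p under 0.05. DESeq2 and limma-voom called 0 members as well, with 0.174% and 0% of all genes. The difference was 1.53 ± 0.28 for Cx3cr1 (adjusted p = 0.638), 0.72 ± 0.15 for Cxcr3 (adjusted p = 0.693), 0.82 ± 0.25 for Ccr9 and -0.53 ± 0.20 for Cxcr6 (adjusted p = 0.99995 for both). Without WT CD44+ NK1.1- replicate 1, 5 members were called, and without replicate 2, 7 were, with 4.13% and 19.1% of all genes. The smaller genotype gap of Cxcr3 and Cx3cr1 in CD44+ NK1.1+ cells did not pass this test. Between CD44- NK1.1- and CD44+ NK1.1- cells 0 members were called, against 0.0217% of all genes, and 1 had an unadjusted p under 0.05, Ccr8 (0.53 ± 0.18, adjusted p = 0.879). There too DESeq2 and limma-voom called 0 members, and 2 and 4 members were called without WT CD44+ NK1.1- replicate 1 and replicate 2, with 4.39% and 22.2% of all genes.

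Of the 10 other chemokine receptor genes, 7 were tested. Ccr7, which guides T cells to the medulla and lymph nodes, had 18.4 CPM in Ezh2-KO and 11.1 CPM in WT CD44+ NK1.1+ cells and 59.4 to 130 CPM in the others. It fell in CD44+ NK1.1+ against CD44+ NK1.1- cells (-2.83 ± 0.25, adjusted p = 0.00179). Cxcr5, the follicular homing receptor, had 3.12 CPM in Ezh2-KO and 1.45 CPM in WT CD44+ NK1.1+ cells, and 8.20 to 31.1 CPM in the others. It fell in the same contrast (-3.25 ± 0.41, adjusted p = 0.00561). It was higher in the knockout over the 3 subsets (1.08 ± 0.24, adjusted p = 0.0293). Ccr7 and Cxcr5 were thus lowest in CD44+ NK1.1+ cells, as Ccr4 and Ccr9 were.

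Ccr6, the receptor of interleukin-17-producing T cells, had 3.96 and 4.46 CPM in Ezh2-KO and 11.99 and 20.3 CPM in WT CD44+ NK1.1- cells. It was lower in the knockout there (-1.94 ± 0.28, adjusted p = 0.0186) and over the 3 subsets (-2.17 ± 0.31, adjusted p = 0.00685), and CD44- NK1.1- cells had 2 reads in Ezh2-KO and 1 in WT cells. Xcr1 was lower in the knockout over the 3 subsets (-0.76 ± 0.18, adjusted p = 0.0322), at 1.74 to 6.11 CPM. Ccr10 had 34.0 CPM in Ezh2-KO and 86.6 CPM in WT CD44- NK1.1- cells, and 68.8 CPM in Ezh2-KO and 38.9 CPM in WT CD44+ NK1.1+ cells, so that its single libraries differed in opposite directions. As the mean over both genotypes, Ccr10 was lower in CD44+ NK1.1+ than in CD44+ NK1.1- cells (-0.38 ± 0.11, adjusted p = 0.0397). The genotypes went in opposite directions in this contrast, with a fold of 1.17 in Ezh2-KO and 0.507 in WT cells. In all, those of the 10 others that were tested gave 0 higher and 1 lower in the knockout in CD44+ NK1.1- cells, beside 3.78% and 1.16% of all genes. Over the 3 subsets they gave 1 higher and 2 lower, beside 6.43% and 4.89% of all genes. Of 6 atypical receptors, which bind chemokines without signalling through G proteins, Ccrl2 alone passed the filter. It had 34.0 CPM in WT CD44+ NK1.1- replicate 1 and 4.13 CPM in replicate 2.

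**Figure D4:**
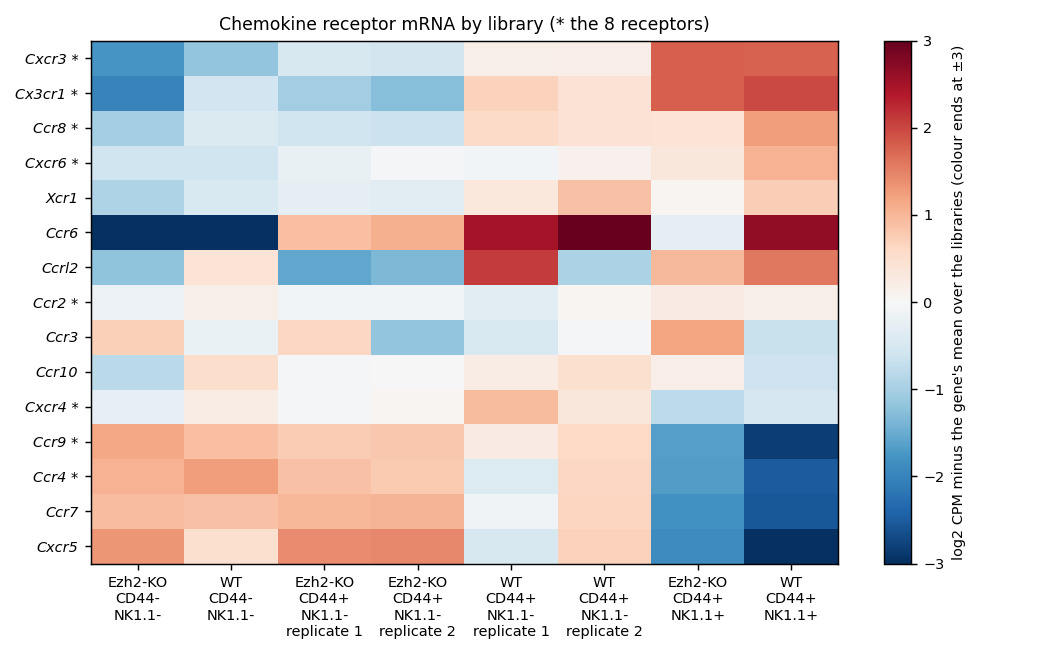
Log2 CPM of chemokine receptor genes minus each gene's mean over the 8 libraries (colour, ending at ±3), with genes in rows, libraries in columns in order of subset, and the 8 genes starred. Cxcr3 and Cx3cr1 are highest in the right-hand CD44+ NK1.1+ libraries, and Ccr9, Ccr4, Ccr7 and Cxcr5 are lowest there.

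The genes around the receptors were read from lists of ligands, of G proteins with their effectors, and of desensitisation factors. Of 14 ligands of the 8 receptors 6 were tested, and their levels were low, with a sum of 7.35 to 14.0 CPM per library. Ccl1, a ligand of CCR8, had 0 reads in the Ezh2-KO and 1 in the WT CD44- NK1.1- library, 1 and 0 in the Ezh2-KO and 6 and 6 in the WT CD44+ NK1.1- replicates, and 0 in the Ezh2-KO and 23 in the WT CD44+ NK1.1+ library. It was the ligand called as lower in the knockout over the 3 subsets (adjusted p = 0.0141), from 1 read in all Ezh2-KO libraries. Ccl1 passed the filter on low counts only through the WT CD44+ NK1.1+ library with 23 reads. Its call is thus no independent support for a lower level in the knockout. Cxcl10, a ligand of CXCR3, was higher in CD44+ NK1.1+ than in CD44- NK1.1- cells (1.01 ± 0.31, adjusted p = 0.0499), at 10.8 CPM in Ezh2-KO and 7.19 CPM in WT against 5.32 CPM in Ezh2-KO and 3.60 CPM in WT cells.

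Of 29 tested genes for G proteins and effectors, 16 rose and 1 fell in CD44+ NK1.1+ against CD44+ NK1.1- cells, where 16.4% of all genes rose and 16.1% fell, and the list median was 0.36 against 0.00 over all genes on the log2 scale. Prex1 (1.51, adjusted p = 0.000903) and Dock2 (0.78, adjusted p = 0.00147), which activate Rac, rose, as did Pik3r5 (1.49, adjusted p = 0.000734), a subunit of the phosphoinositide kinase that G proteins switch on, and the G protein subunit gene Gng2 (1.29, adjusted p = 0.00101). Gnai2, the inhibitory G protein alpha subunit of leukocytes, had 1020 to 1230 CPM in all libraries. Between genotypes over the 3 subsets, 1 was higher, Gnaq (0.52, adjusted p = 0.0197), and 3 were lower, Pik3cg (-0.38, adjusted p = 0.0278), Pik3r5 (-0.40, adjusted p = 0.0307) and Tln1 (-0.22, adjusted p = 0.0458), a share close to the 11.3% of all genes called. In CD44+ NK1.1- cells alone edgeR called 0 of the 29 between genotypes, with 9 at an unadjusted p under 0.05 (20.7% of all genes). Of 18 tested desensitisation genes, Rgs3, a brake on G proteins, had 117 and 117 CPM in Ezh2-KO and 214 and 174 CPM in WT CD44+ NK1.1- cells (-0.73 ± 0.12, adjusted p = 0.0277). It rose in CD44+ NK1.1+ against CD44+ NK1.1- cells (1.03 ± 0.10, adjusted p = 0.00163), a contrast in which 6 of the list rose and 4 fell, beside the 16.4% and 16.1% of all genes.

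Genes whose log2 CPM followed a member over the 8 libraries were taken as the 3 with the highest Pearson r among 8615 genes. These r describe 8 libraries that share their subsets and carry no test. Cxcr3 was followed by Rap1gap2 (r = 0.997), Tnfsf14 (0.996) and Adgre5 (0.993), and Cx3cr1 by 1110008P14Rik (0.997), Atp6v0a2 (0.995) and Kctd12 (0.993). Ccr8 was followed by Capg (0.996), Kcna3 (0.993) and Hcls1 (0.991). Ccr4 was followed by Fkbp1a (0.996), Pitrm1 (0.993) and Id3 (0.993), and Ccr9 by Bcam (0.994), Cmss1 (0.994) and Tcf7 (0.992). Ccr2 (Celf1, 0.966), Cxcr4 (Zcchc10, 0.964, and the immediate early gene Nr4a1, 0.959) and Cxcr6 (Vps26c and Susd3, both 0.970) had less close matches. Among the members themselves, the closest pair was Ccr4 and Ccr9 (r = 0.98), ahead of Cx3cr1 with Ccr8 and with Cxcr3 (0.95 each). The neighbours Cx3cr1 and Ccr8 thus shared their pattern, while the neighbours Ccr9 and Cxcr6 had an r of -0.91.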

How the data were processed

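RNA-seq was made by the authors from total RNA (RNeasy Plus Mini, TruSeq RNA kit, 4 lanes per library, per the labels). What the authors deposited are raw counts of reads for each gene. Per the submitters' processing notes, the tools were CASAVA, Subread 1.4.3-p1 and featureCounts with build mm10. The strand setting is not given in the sources used here, so overlapping genes cannot be told apart. Of 27179 identifiers 25275 matched a RefSeq symbol (GRCm38.p6).

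The filter filterByExpr on 6 groups kept 13794 genes, which were scaled by TMM and tested with the quasi-likelihood test of edgeR 4.0.16 (robust=TRUE; R 4.3.3), which also gave every adjusted p in the text unless another tool is named. Adjustment was by Benjamini and Hochberg over all genes tested, with calls at an adjusted p under 0.05. A 6-group model (2 residual degrees of freedom, biological coefficient of variation 0.141) gave contrasts within subsets, between subsets and their differences, and an additive model (4 residual degrees of freedom, 0.137) gave the effect over the 3 subsets. SE is the size of the log2 fold change divided by the root of F. A count of 0 allows up to 3 counts, 0.129 to 0.151 CPM, counting error only. CPM uses TMM library sizes, and RPKM the gene length in the deposited table. The code was tested on simulated data.

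Alternatives in method were edgeR with size factors of the kind DESeq2 uses, the Wald test of DESeq2 1.42.0, and limma-voom (limma 3.58.1). The others, with edgeR, were library-size scaling, other filters, robust=FALSE, single genotypes and the mean of the 3 genotype effects. Fits on only CD44+ NK1.1- libraries and with each library left out were also made. Named genes were the 8 members, tested receptors, up to 4 called genes per list by smallest p, Ezh2 and Tbx21 as context, and the 3 closest patterns per member; Gnai2, Klrb1c and Zbtb16 were added after their values were seen. Some items covered by this rule are left out here. The members and lists were chosen with earlier results of these data known. Nothing says whether subsets came from the same animals, so libraries were treated as independent.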

Additional observations from a re-analysis of the deposited data

How the results depend on the processing

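No paired analysis was possible because the labels give the libraries no replicate numbers. Over the alternatives, 882 member values kept direction and side of the threshold, 45 lost a call, 77 gained one and 12 reversed. Leaving out single libraries gave 0 to 7 members called between genotypes in CD44+ NK1.1- cells (0.733% to 42% of all genes), 1 to 3 over the subsets (3.55% to 20.4%), 0 to 4 in CD44+ NK1.1+ (0.181% to 17.8%) and 0 to 6 in CD44- NK1.1- cells (0.00726% to 18.1%). It gave 1 to 8 for CD44+ NK1.1- over CD44- NK1.1- (0.603% to 31.9%), 6 to 8 for CD44+ NK1.1+ over CD44+ NK1.1- (11% to 62.6%) or CD44- NK1.1- (15.7% to 63.1%), and 0 to 7 (0% to 19.1%) and 0 to 4 (0.00726% to 22.2%) for the differences of effects. Over the subsets limma-voom called 2 (11.2%). In CD44+ NK1.1+ cells 2 were called without a filter (1.25%) and 3 by DESeq2 (1.44%). Between the NK1.1- subsets WT libraries alone gave 0 (0.337%) and Ezh2-KO libraries alone 7 (14.7%), and for CD44+ NK1.1+ over CD44+ NK1.1- WT libraries alone gave 2 (1.6%).

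Ccr2 between genotypes was -0.14 without WT CD44+ NK1.1- replicate 1 and 0.26 without replicate 2, and over the subsets 0.011 without that replicate 2, 0.042 without WT CD44- NK1.1- and 0.053 without Ezh2-KO CD44- NK1.1-. Between subsets it was 0.11 in Ezh2-KO libraries alone (NK1.1- step) and -0.0088 in WT libraries alone (CD44+ NK1.1+ over CD44- NK1.1-). Cxcr6 in CD44- NK1.1- cells was 0.045 under library-size scaling. In the difference CD44+ NK1.1+ minus CD44+ NK1.1-, Ccr2 was -0.024 under library size and 0.20 and -0.20 without WT CD44+ NK1.1- replicates 1 and 2. Ccr4 there was 0.61 (adjusted p = 0.000341) and -0.42 (adjusted p = 0.0166) without them, so that it was called in opposite directions. In the difference CD44- NK1.1- minus CD44+ NK1.1-, Ccr9 was 0.086 and -0.28, and Cxcr4 -0.14 and 0.47, without them. The cause was not tested. Library-size scaling moved the median of all genes to -0.13 in CD44+ NK1.1+ over CD44+ NK1.1- and -0.16 over CD44- NK1.1- cells, and TMM values are relative to a median near 0. Both outer subsets have 1 library per genotype.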
